A study of Mus musculus with 10 samples.

Results

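The genes described here encode 5 families of pre-mRNA splicing factors in mouse liver and liver tumours. They were chosen by gene symbol alone: the SR proteins (Srsf with a number), the heterogeneous nuclear ribonucleoproteins (Hnrnp), the small nuclear ribonucleoprotein proteins (Snrp, without Snrpn), the SF3A and SF3B subunits (Sf3a and Sf3b) and the PRPF factors (Prpf with a number). The symbols matched 65 of 16697 gene entries, made up of 11 SRSF, 20 HNRNP, 12 SNRP, 9 SF3 and 13 PRPF genes. A total of 64 were tested, and Srsf12 was too low to test.

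Gene expression was measured by RNA sequencing of whole liver tissue in 10 libraries. Of these, 4 came from normal livers (NL), 3 from tumours that arose after c-MYC was given with the empty vector pT3 (c-MYC), and 3 from tumours that arose after c-MYC was given together with FOXO1AAA (c-MYC/FOXO1AAA). FOXO1AAA is a form of the transcription factor FOXO1 that stays active because AKT can no longer inactivate it. The question behind these libraries is what active FOXO1 alters in gene expression of c-MYC tumours. The tumours were made by hydrodynamic tail vein injection, which brings plasmids into hepatocytes, where a transposase inserts them into the genome, and the vector of the FOXO1AAA plasmid and of its empty control carries the EF1α promoter, which is active in most cell types. The labels give wild-type genotype and strain C57BL/6 for these mice, while the extraction text and the methods of the study give FVB and FVB/N, and the sources disagree on whether the c-MYC group also received the oncogene MCL1. Neither age nor time after injection is given in the labels. Nothing in the labels says that the replicates of a group are separate animals. The methods of the study describe RNA from injected mice (n = 3 in each tumour group) and from normal livers (n = 4). The p-values measure the spread between these samples.

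Splicing removes introns from pre-mRNA on the spliceosome, which is built from small nuclear ribonucleoproteins (snRNPs). U1 recognizes the 5′ splice site and U2 the branch point, the U4/U6.U5 tri-snRNP then joins, and the complex rearranges into its catalytic form. Around this core, SR proteins bind exons and mostly favour their inclusion, whereas hnRNPs often oppose it, so that their balance sets which exons are kept. In the liver, SRSF3 is known to be needed for hepatocyte maturation, and MYC is known to raise the transcription of several splicing factor genes.

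The libraries held 13.12 to 20.55 M reads in listed genes, recovered from the deposited values. Foxo1 was 7.14 ± 0.532 FPKM over 4 libraries (SD) in NL, 5.63 ± 0.721 FPKM over 3 libraries (SD) in c-MYC and 83.1 ± 12.8 FPKM over 3 libraries (SD) in c-MYC/FOXO1AAA, so the libraries labelled with FOXO1AAA were the ones with high Foxo1. The mouse Myc entry was 11.2 ± 8.17 FPKM over 4 libraries (SD) in NL against 0.771 ± 0.254 FPKM over 3 libraries (SD) in c-MYC, and whether reads of the injected c-MYC were counted there is not stated. All 6 hepatocyte markers were detected in every group, with a summed FPKM of 79367 to 89284 in NL, 3253 to 5080 in c-MYC and 860.2 to 1538 in c-MYC/FOXO1AAA. The 6 markers of dividing cells were called higher in both tumour groups than in NL, and their summed FPKM was 3.17 to 20.6 in NL, 268 to 312 in c-MYC and 199 to 231 in c-MYC/FOXO1AAA, with no defining marker at 0 reads in any group. NL 1 had the highest sum among the NL libraries, and it was also the highest of the NL libraries for 48 of the 64 splicing factor genes. How often NL 1 was highest over all genes was not counted. Its FPKM total over all genes was also the highest, 1126395 against 1066173, 1078089 and 1063646 in NL 2 to 4. In bulk tissue, fewer cells of a type and less RNA per cell cannot be told apart.

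The splicing factor genes held a larger share of the reads in every tumour library than in any NL library. The 65 genes took 0.352%, 0.306%, 0.331% and 0.322% of the reads in NL 1 to 4, 1.31%, 1.29% and 1.31% in c-MYC 1 to 3, and 1.69%, 1.65% and 1.63% in c-MYC/FOXO1AAA 1 to 3. The 3 groups did not overlap. The mean share was 3.98-fold higher in c-MYC than in NL and 1.27-fold higher again with FOXO1AAA. In 2-sided exact permutation tests the p was 0.0571 against NL for either tumour group and 0.1 between the tumour groups (0.0857 and 0.1 after adjustment over the 3 comparisons), the smallest these group sizes allow. On the deposited FPKM scale (fragments per kilobase of transcript, relative to sequencing depth, after the authors' scaling between libraries) the summed level differed less, with NL at 2571 ± 199 FPKM (SD, n = 4), c-MYC at 5225 ± 74 (SD, n = 3) and c-MYC/FOXO1AAA at 5864 ± 51.4 (SD, n = 3). These are ratios of 2.03 for c-MYC over NL and 1.12 between the tumour groups. The scaling factors of the authors were 0.649 to 0.684 in NL and 1.26 to 1.5 in the tumours, and the 10 most abundant genes took 19.1% to 21.2% of the reads in NL and 6.91% to 9.3% in the tumours. HNRNP genes held the largest part, 0.149% to 0.174% of reads in NL, 0.671% to 0.679% in c-MYC and 0.885% to 0.91% in c-MYC/FOXO1AAA.

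**Figure D1:**
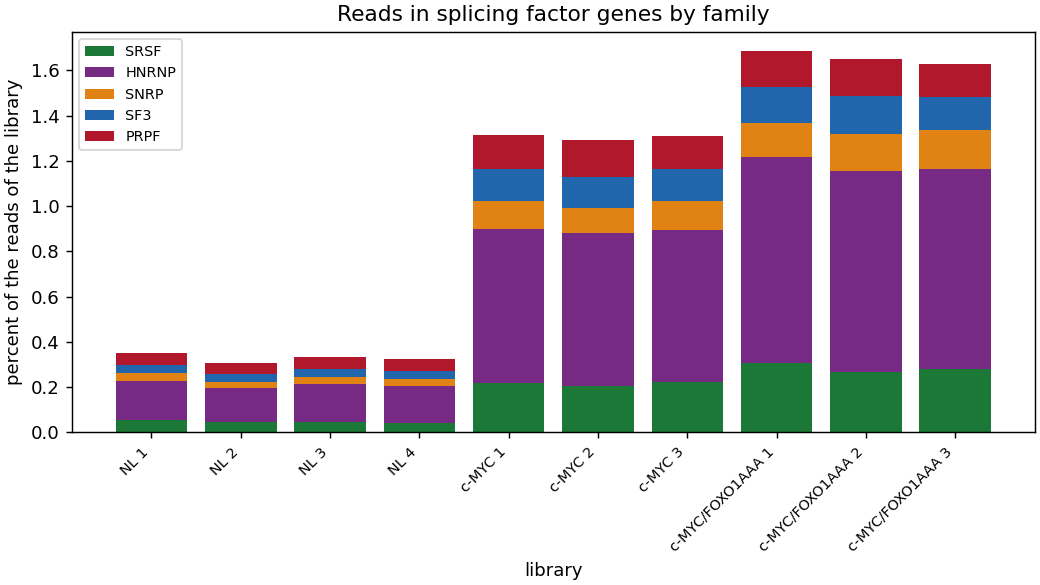
Share of the reads of each library that fell in splicing factor genes, stacked by family, with libraries on the x axis and percent of reads on the y axis. The NL bars reach 0.306% to 0.352%, the c-MYC bars 1.29% to 1.31% and the c-MYC/FOXO1AAA bars 1.63% to 1.69%.

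Levels within a family spanned a wide range. A level compares genes only as far as the length used for it is right, and the authors used 1 transcript length per gene, less than 0.5 times the longest annotated transcript for 9 of the 65 genes, Sf3b1 (600 of 6195 bases) and Prpf38b (556 of 3026 bases) among them. Averaged over all 10 libraries, the highest level was that of Srsf2 among SR proteins, Hnrnpa2b1 among hnRNPs, Snrpb among SNRP genes, Sf3b1 in SF3 and Prpf38b in PRPF. The lowest were Srsf12, Hnrnpr (scaled by 21452 bases), Snrpb2, Sf3a1 and Prpf4. The order differed between groups. In NL, Srsf5 lay above Srsf2, and in c-MYC/FOXO1AAA, Hnrnpa1 lay above Hnrnpa2b1. In c-MYC, Sf3b5 lay below Sf3a1, Prpf18 and Prpf40b lay below Prpf4, and Prpf40b was also below Prpf4 in c-MYC/FOXO1AAA. Srsf12 had 1, 0, 1 and 1 reads in NL 1 to 4, 3, 10 and 17 in c-MYC 1 to 3, and 0, 1 and 6 in c-MYC/FOXO1AAA 1 to 3. Among the tested genes, 61 of 64 had at least 100 reads in every library, and the lowest count was 22 reads for Snrpert, a processed pseudogene related to Snrpe. Hnrnpa1, Hnrnpa3, Snrpe and several other members have near-identical copies elsewhere in the genome among which reads may be split, and all values are totals per gene, so isoforms are not seen.

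The first comparison asks what distinguishes c-MYC tumours from normal liver. Splicing factor genes of all 5 families were higher in c-MYC: 42 of 64 passed the test for a change above 1.5-fold (limma treat, adjusted p under 0.05) in the direction of c-MYC, a share of 65.6% against 24.5% of all 14017 genes tested. Without NL 1 the count was 44. None was called lower, against 23.6% of all genes. No member reached an unadjusted p under 0.05 in that direction, whereas 45 reached it with c-MYC higher (51.4% of all genes in either direction). Without a fold threshold, limma called 55 members higher (39.1% of all genes) and 2 lower, Prpf18 and Prpf40b (35.3% of all genes). The median log2 fold change was 1.05 over the members and 0.08 over all genes. The libraries of the groups did not overlap for 56 members with c-MYC higher (39.0% of all genes) and for 2 with c-MYC lower (34.9% of all genes). When the libraries were set to the same FPKM total, the median of all genes moved to 1.01 and that of the members to 1.98, a shift that adds the same amount to every gene of a library and so cannot alter the distance between both medians, 0.97. After quantile normalization the distance was 1.11. With the same FPKM total no member lay below 0. The 4 that lay below 0 as deposited were Hnrnpa3, Prpf18, Prpf40b and Prpf6.

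**Figure D2:**
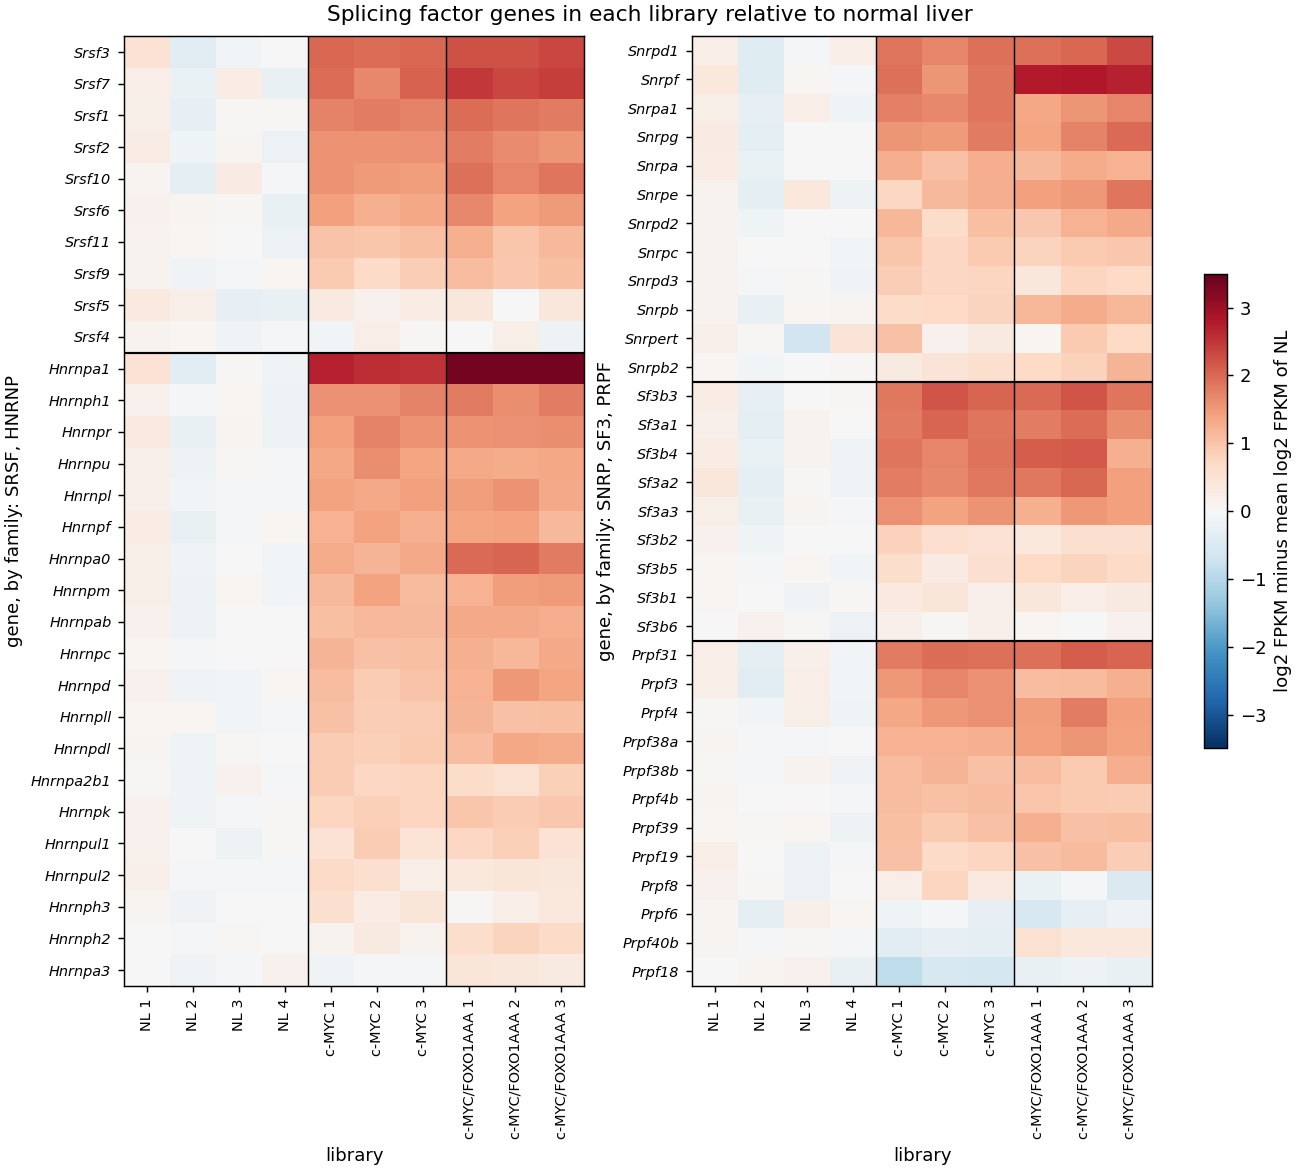
Heat map of 63 tested splicing factor genes (rows, grouped by family) in the 10 libraries (columns), as log2 FPKM minus the mean log2 FPKM of NL. Most rows turn red in all 6 tumour libraries, led by Hnrnpa1, while Srsf4, Srsf5, Sf3b1, Sf3b6, Hnrnpa3, Prpf6 and Prpf18 stay pale or turn blue.

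Among SR proteins, 8 of 10 were called higher in c-MYC. Srsf3, the smallest member and a regulator of splicing and mRNA export, had the largest change. The gene lies at chr17:29032628-29043373 (plus strand, GRCm38), and it was at 38.8, 20.6, 25.8 and 27.2 FPKM in NL 1 to 4, 109.7, 106 and 109.9 in c-MYC 1 to 3, and 128, 129 and 139 in c-MYC/FOXO1AAA 1 to 3. Every tumour library lay above every NL library, of which NL 1 was the highest (log2 fold change 1.98 ± 0.17 (SE), adjusted p = 2.08e-05). Its relative Srsf7, which carries a zinc knuckle beside its RNA-binding domain, was at 19.4, 14.0, 19.8 and 13.8 FPKM in NL 1 to 4, 63.8, 52.7 and 69.5 in c-MYC 1 to 3, and 92.1, 83.3 and 87.8 in c-MYC/FOXO1AAA 1 to 3, again without overlap between NL and the tumours (log2 fold change 1.90 ± 0.15 (SE), adjusted p = 1.56e-05). Srsf1, the founding member of the family and a known oncoprotein, was 14.3 ± 2.02 FPKM over 4 libraries (SD) in NL and 48.2 ± 1.18 FPKM over 3 libraries (SD) in c-MYC (log2 fold change 1.76 ± 0.11 (SE), adjusted p = 4.08e-06). Srsf2, the SR protein gene with the highest mean over the 10 libraries, was called as well (log2 fold change 1.59 ± 0.12 (SE), adjusted p = 1.77e-05). Not called were Srsf4 and Srsf5: Srsf4 was 6.52 ± 0.523 FPKM over 4 libraries (SD) in NL and 6.80 ± 0.758 FPKM over 3 libraries (SD) in c-MYC (log2 fold change 0.06 ± 0.13 (SE), adjusted p = 1), and Srsf5 had a log2 fold change of 0.25 ± 0.17 (SE). Srsf6, a close relative of both, was called higher (log2 fold change 1.34 ± 0.12 (SE), adjusted p = 0.000125).

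hnRNPs gave 13 of 20 called higher. The largest change among all members was that of Hnrnpa1, which binds splicing silencers and promotes exon skipping. The gene lies at chr15:103240432-103246692 (plus strand, GRCm38), and its level was 67.5, 36.0, 48.7 and 43.4 FPKM in NL 1 to 4, 316, 284 and 274 in c-MYC 1 to 3, and 482, 487 and 486 in c-MYC/FOXO1AAA 1 to 3. NL 1 was the highest NL library, and every tumour library lay far above it (log2 fold change 2.61 ± 0.17 (SE), adjusted p = 1.58e-06). Within the hnRNP A/B group 3 of 5 were called, and the log2 fold changes ran from -0.07 (Hnrnpa3) to 2.61. Hnrnph1, which binds G-rich elements near splice sites, was at 32.8, 28.6, 30.9 and 25.6 FPKM in NL 1 to 4, 88.3, 89.0 and 97.0 in c-MYC 1 to 3, and 103, 91.1 and 101 in c-MYC/FOXO1AAA 1 to 3 and did not overlap between NL and the tumours (log2 fold change 1.64 ± 0.10 (SE), adjusted p = 3.89e-06). Its relatives Hnrnph2 and Hnrnph3 were not called, with log2 fold changes of 0.19 ± 0.09 (SE) and 0.41 ± 0.12 (SE). Hnrnpr, a relative of the mRNA-binding protein SYNCRIP, rose from 1.68 ± 0.331 FPKM over 4 libraries (SD) to 4.98 ± 0.513 FPKM over 3 libraries (SD) (log2 fold change 1.58 ± 0.18 (SE), adjusted p = 0.000324). For Hnrnpa2b1, the member with the highest mean over the 10 libraries, the log2 fold change of 0.79 ± 0.11 (SE) did not pass the test (limma adjusted p = 0.0898), although its groups did not overlap.

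In the SNRP family 8 of 12 were called higher. The Sm proteins form the ring around each spliceosomal snRNA, and 5 of 7 were called: Snrpd1, Snrpf, Snrpg, Snrpe and Snrpd2. Snrpe (limma treat, adjusted p = 0.0362) lost its call without NL 2, NL 4, c-MYC 2 or c-MYC 3. Snrpd2 (limma treat, adjusted p = 0.0276) lost it without NL 2, c-MYC 1 or c-MYC 3. Snrpd1 was at 22.4, 14.2, 18.6 and 22.4 FPKM in NL 1 to 4, 70.4, 62.4 and 72.8 in c-MYC 1 to 3, and 72.9, 77.5 and 94.2 in c-MYC/FOXO1AAA 1 to 3, with c-MYC well apart from NL (log2 fold change 1.84 ± 0.16 (SE), adjusted p = 3.27e-05). Snrpf rose from 11.3 ± 2.50 FPKM over 4 libraries (SD) in NL to 38.3 ± 5.24 FPKM over 3 libraries (SD) in c-MYC (log2 fold change 1.79 ± 0.17 (SE), adjusted p = 5.81e-05). The other 2 Sm genes, Snrpb and Snrpd3, had log2 fold changes of 0.71 ± 0.10 (SE) and 0.78 ± 0.11 (SE) and did not pass. Both U1 proteins, Snrpa and Snrpc, were called higher. Of the U2 proteins, Snrpa1 was called (log2 fold change 1.77 ± 0.14 (SE), adjusted p = 1.77e-05) and its partner Snrpb2 was not (log2 fold change 0.44 ± 0.13 (SE), adjusted p = 1).

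SF3A and SF3B are the U2 complexes that hold the branch point during spliceosome assembly. All 3 SF3A genes were called higher in c-MYC, with log2 fold changes of 1.53 to 1.91, Sf3a1 highest. Of the 6 SF3B genes, Sf3b3 and Sf3b4 were called and Sf3b1, Sf3b2, Sf3b5 and Sf3b6 were not, over a range of 0.12 to 2.03. Sf3b3 lies at chr8:110810239-110846787 (minus strand, GRCm38), and it was at 14.0, 9.66, 11.5 and 11.99 FPKM in NL 1 to 4, 42.3, 53.9 and 47.7 in c-MYC 1 to 3, and 45.8, 53.7 and 43.0 in c-MYC/FOXO1AAA 1 to 3. No tumour library overlapped NL, and the tumour groups overlapped each other (log2 fold change 2.03 ± 0.14 (SE), adjusted p = 3.92e-06). By contrast Sf3b1, the large HEAT-repeat subunit that clamps the branch helix and is recurrently mutated in human cancers, was at 235, 227, 206 and 228 FPKM in NL 1 to 4, 285, 301 and 254 in c-MYC 1 to 3, and 294, 263 and 281 in c-MYC/FOXO1AAA 1 to 3. NL and c-MYC did not overlap, but the shift was small (log2 fold change 0.32 ± 0.09 (SE), adjusted p = 1). Sf3b4, which touches the pre-mRNA beside the branch point, was called higher (log2 fold change 1.82 ± 0.21 (SE), adjusted p = 0.000281).

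PRPF genes fell into 3 kinds. The 3 proteins of the U4/U6 snRNP, Prpf31, Prpf3 and Prpf4, were all called higher. Prpf31, which holds U4 snRNA and is mutated in an inherited retinal degeneration, lies at chr7:3629985-3642486 (plus strand, GRCm38) and was at 6.11, 4.15, 5.84 and 4.89 FPKM in NL 1 to 4, 18.4, 20.1 and 19.8 in c-MYC 1 to 3, and 19.7, 22.7 and 21.1 in c-MYC/FOXO1AAA 1 to 3. No tumour library reached down to NL (log2 fold change 1.90 ± 0.14 (SE), adjusted p = 6.56e-06). Prpf3 and Prpf4 gave log2 fold changes of 1.61 ± 0.16 (SE) and 1.49 ± 0.15 (SE). The 2 U5 proteins were not called: Prpf8, the scaffold of the catalytic centre, had a log2 fold change of 0.44 ± 0.15 (SE), and Prpf6, which bridges the tri-snRNP, one of -0.17 ± 0.14 (SE). Of the 8 other factors, 5 were called higher, among them Prpf38a, Prpf38b, Prpf39 and Prpf4b. The gene with the lowest fold change of all members was Prpf18, a factor of the second catalytic step. It was at 12.3, 13.0, 13.4 and 10.2 FPKM in NL 1 to 4, 6.62, 8.25 and 7.99 in c-MYC 1 to 3, and 10.2, 10.8 and 10.1 in c-MYC/FOXO1AAA 1 to 3. Its c-MYC libraries all lay below NL, and the change did not pass (log2 fold change -0.68 ± 0.13 (SE), adjusted p = 0.383).

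**Figure D3:**
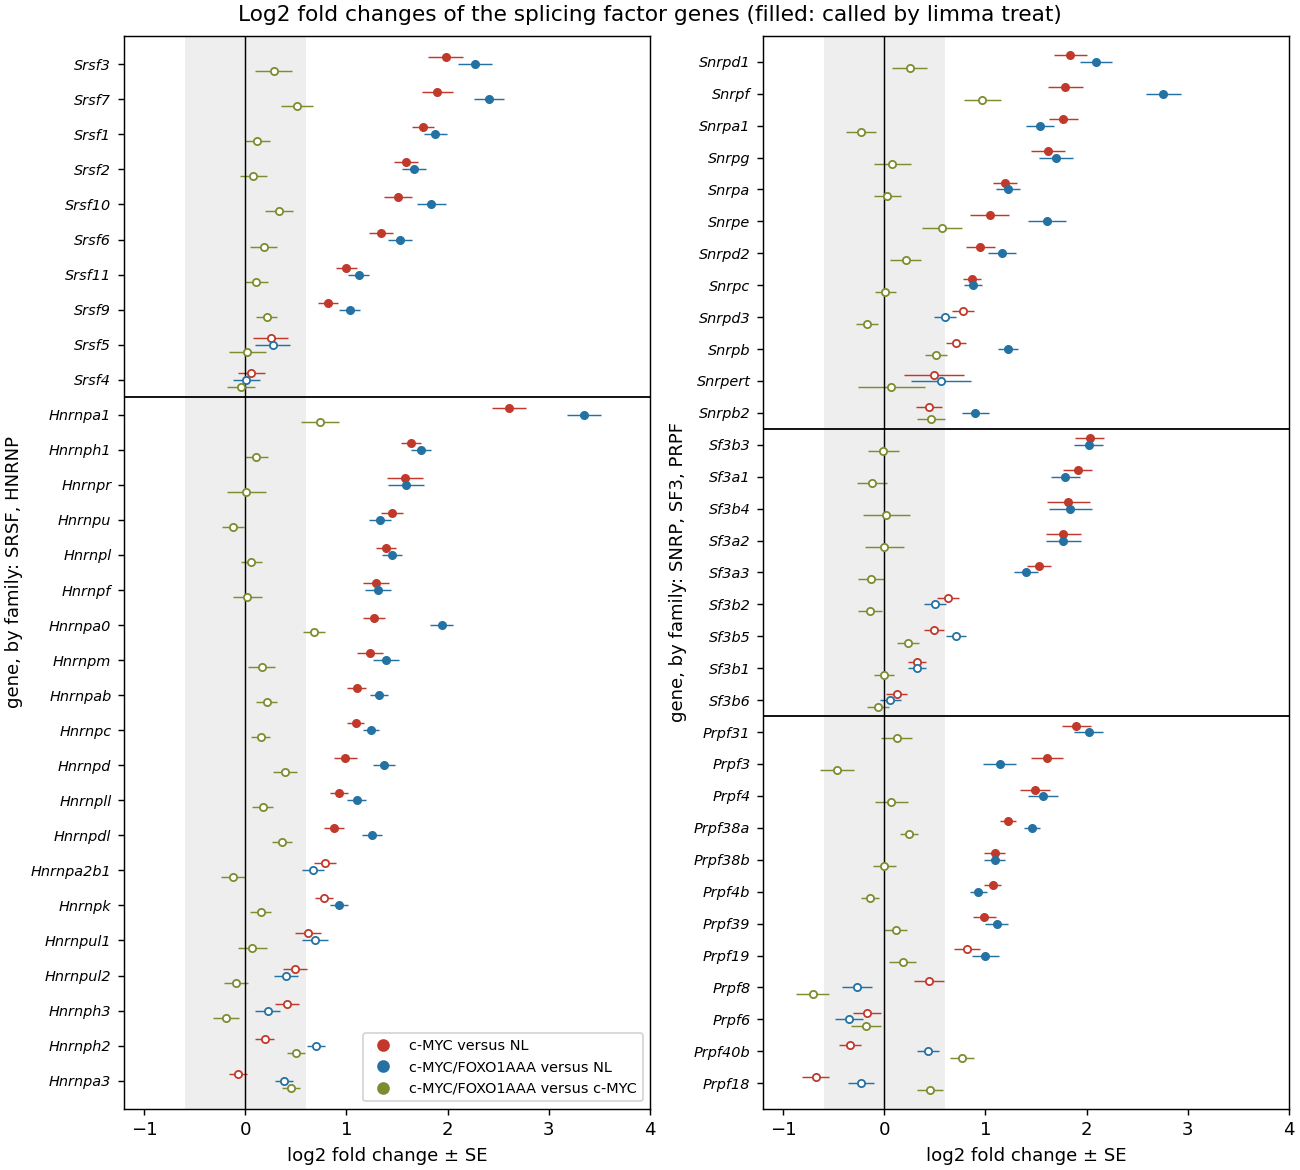
Log2 fold change with SE (x axis) of 63 tested genes (y axis, by family) in the 3 comparisons, filled where limma treat called the gene, with a grey band marking changes under 1.5-fold. Filled red and blue points, 41 and 45 of 63, all lie above 0, and no green point, the comparison of the tumour groups, is filled.

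Canonical E-boxes (CACGTG, the site bound by MYC with MAX, which reads the same on both strands) were looked for in RefSeq promoters of build GRCm38.p6, each spanning 250 bases before to 50 bases after a start. Of the 65 genes, 56 had a promoter in the table, while Hnrnpll, Hnrnpul2, Prpf18, Sf3b4, Sf3b5, Snrpb, Snrpd1 and Snrpert were among those that did not. The motif was present for 9 of the 56 (16.1%), for 11.8% of 10145 tested genes and for 8.1% of all 27025 genes of the table. The forkhead element GTAAACA, searched on both strands, was present for 2 of the 56, Snrpf and Srsf6 (3.6%), against 3.3% of tested genes and 4.1% of all genes. Of the 9 members with the motif, 6 were called higher in c-MYC than in NL (Hnrnpd, Hnrnpf, Hnrnpm, Prpf3, Prpf39 and Snrpa), which is 66.7%, beside 65.6% of all tested members, and Hnrnpa3, Hnrnph2 and Prpf40b were not. The sites of 3 of them are shown as examples, 1 of the called and 2 of the others, 30 bases each, 5′ to 3′ along the gene, with the E-box in capitals.
Prpf3: gccttccgtagtCACGTGccgtagggaccg
Hnrnpa3: cggatagcacatCACGTGgtgactggcccc
Prpf40b: caggattctgcgCACGTGggggcggggcct
The Prpf3 site is at chr3:95855856-95855885 (minus strand), where the motif begins 120 bases before 1 of 2 listed starts and 12 bases after the other. The Hnrnpa3 site is at chr2:75659229-75659258 (plus strand), 18 bases before the start, and the Prpf40b site at chr15:99295038-99295067 (plus strand), 191 bases before it. A match describes the letters and not the binding of a factor.

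The second comparison asks what FOXO1AAA adds to c-MYC tumours. No splicing factor gene was called in either direction by limma treat, against 15.9% of all genes called higher and 12.7% called lower in c-MYC/FOXO1AAA. At an unadjusted p under 0.05 there was 1 member, Snrpf, against 33.7% of all genes. Without a fold threshold limma called 14 members higher and 3 lower in c-MYC/FOXO1AAA, against 28.4% and 26.4% of all genes. The median log2 fold change was 0.09 over the members and 0.03 over all genes, and 59 of 64 lay within 1.5-fold. Libraries did not overlap for 23 members with c-MYC/FOXO1AAA higher (32.7% of all genes) and for 4 with it lower (30.7% of all genes), Prpf8, Prpf4b and Prpf3 among the latter. An adjusted p above the threshold does not show that the tumour groups were equal.

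The member closest to the threshold was Snrpf, the Sm protein F of the snRNP ring. The gene lies at chr10:93583029-93589706 (minus strand, GRCm38). It was at 14.3, 8.27, 11.7 and 10.8 FPKM in NL 1 to 4, 41.9, 32.3 and 40.8 in c-MYC 1 to 3, and 75.0, 77.8 and 71.4 in c-MYC/FOXO1AAA 1 to 3. All c-MYC/FOXO1AAA libraries were above all c-MYC libraries, and these above all NL libraries. The difference between the tumour groups missed the threshold (log2 fold change 0.97 ± 0.18 (SE), adjusted p = 0.0885). Over the alternatives its adjusted p ran from 0.000843 to 1, and Snrpf passed when NL 1 or NL 2 was left out (adjusted p = 0.0481 and 0.0357), through the spread that the groups share. Hnrnpa1 was likewise highest in c-MYC/FOXO1AAA in all 3 libraries (log2 fold change 0.74 ± 0.19 (SE), adjusted p = 0.519). Hnrnpa0, an abundant relative, was at 82.5, 64.3, 72.3 and 66.9 FPKM in NL 1 to 4, 174, 162 and 178 in c-MYC 1 to 3, and 282, 289 and 250.1 in c-MYC/FOXO1AAA 1 to 3, and its 3 groups were also apart (log2 fold change 0.68 ± 0.11 (SE), adjusted p = 0.527).

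Prpf40b and Prpf8 lay at either end of the PRPF family. Prpf40b, a U1-associated protein with WW domains, was at 6.37, 5.71, 6.19 and 5.78 FPKM in NL 1 to 4, 4.53, 4.97 and 4.77 in c-MYC 1 to 3, and 8.63, 7.82 and 7.82 in c-MYC/FOXO1AAA 1 to 3. c-MYC lay below NL and c-MYC/FOXO1AAA above it, with no overlap among the 3 groups, and the difference between the tumour groups did not pass (log2 fold change 0.77 ± 0.12 (SE), adjusted p = 0.207). It passed with the same FPKM total, at a log2 difference of 0.94 (limma treat, adjusted p = 0.036). Its difference from NL to c-MYC turned to 0.59 when the libraries were set to the same FPKM total. Prpf8 was at 45.5, 42.0, 35.4 and 40.8 FPKM in NL 1 to 4, 47.9, 68.3 and 51.5 in c-MYC 1 to 3, and 34.4, 38.9 and 28.5 in c-MYC/FOXO1AAA 1 to 3. Here c-MYC/FOXO1AAA lay below c-MYC, c-MYC lay above NL, and c-MYC/FOXO1AAA overlapped NL (log2 fold change -0.71 ± 0.16 (SE), adjusted p = 0.527). In the SRSF family the largest difference was that of Srsf7 (log2 fold change 0.51 ± 0.16 (SE), adjusted p = 1), and in SF3 that of Sf3b5 (log2 fold change 0.23 ± 0.11 (SE), adjusted p = 1). The SF3 genes had log2 differences of -0.14 to 0.23. Over all families, the sign of the difference turned for 14 members with the same FPKM total, for 12 with equal medians and for 15 after quantile normalization, none of them called.

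**Figure D4:**
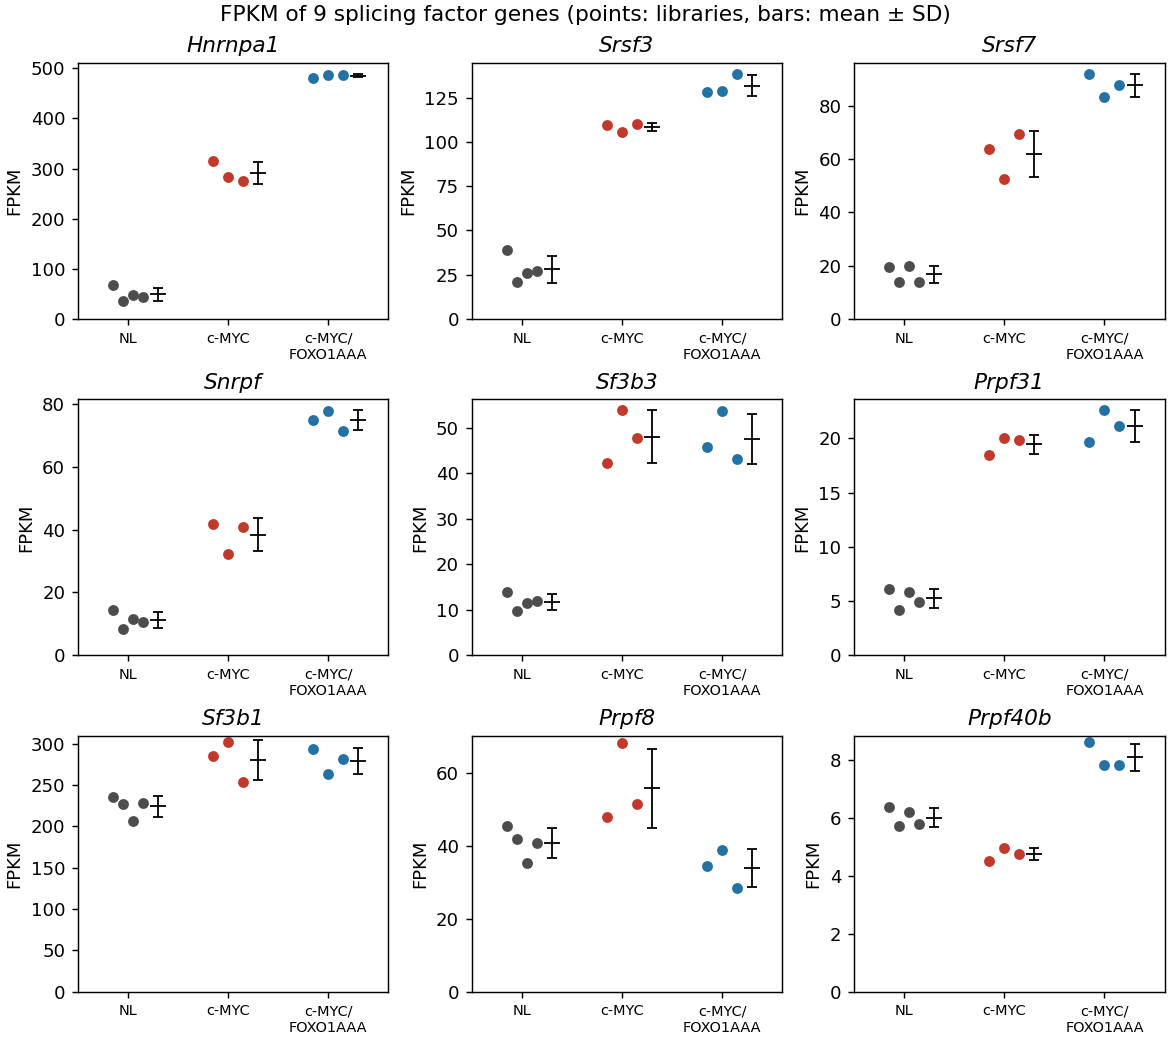
FPKM of 9 splicing factor genes in each library (points) with the group mean and SD (bars), each panel with its own y axis from 0. Hnrnpa1, Srsf3, Srsf7, Snrpf, Sf3b3 and Prpf31 are higher in all tumour libraries than in NL, Sf3b1 shifts little, and Prpf40b and Prpf8 differ between the tumour groups in opposite directions.

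Against normal liver, the c-MYC/FOXO1AAA tumours gave 45 of 64 members called higher (70.3%, against 31.2% of all genes) and none lower (against 26.6% of all genes). No member was lower at an unadjusted p under 0.05 and 45 were higher (60.1% of all genes in either direction), and limma without a fold threshold called 56 higher (44.4% of all genes) and 1 lower, Prpf6 (36.0% of all genes). By family, 8 of 10 SRSF, 14 of 20 HNRNP, 10 of 12 SNRP, 5 of 9 SF3 and 8 of 13 PRPF genes were called. The median log2 fold change was 1.22 over the members and 0.21 over all genes, and 2.32 and 1.31 with the same FPKM total. The groups did not overlap for 56 members with c-MYC/FOXO1AAA higher (44.1% of all genes) and for none with it lower (36.0% of all genes). Because both comparisons against normal liver share the NL libraries, their values are given side by side and not correlated. Hnrnpa1 (log2 fold change 3.35 ± 0.17 (SE), adjusted p = 9.37e-08), Snrpf (log2 fold change 2.76 ± 0.17 (SE), adjusted p = 4.14e-07) and Srsf7 (log2 fold change 2.41 ± 0.15 (SE), adjusted p = 8.08e-07) led, where the c-MYC values had been 2.61, 1.79 and 1.90. Srsf3 reached 2.27, Snrpd1 2.09, and Sf3b3 and Prpf31 2.02 each, where the c-MYC values had been 1.98, 1.84, 2.03 and 1.90. In both comparisons 41 members were called. Hnrnpk, Prpf19, Snrpb and Snrpb2 were called in c-MYC/FOXO1AAA and not in c-MYC, though none of these 4 was called between the tumour groups. Of these, Snrpb2 (limma adjusted p = 0.0287) lost its call without NL 2, NL 3 or c-MYC/FOXO1AAA 3. The 18 called in neither included Sf3b1, Sf3b2, Sf3b5 and Sf3b6, both U5 proteins, Srsf4, Srsf5, Hnrnpa2b1, Hnrnpa3, Hnrnph2 and Hnrnph3.

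Ratios of related genes within a library do not depend on the scaling between libraries. Of 18 pairs compared, 6 had a log2 ratio that differed by at least 1 between 2 groups without overlap. Hnrnpa1 relative to Hnrnpa2b1 gave a log2 ratio of -2.61 ± 0.32 for NL (SD, n = 4), of -0.79 ± 0.05 for c-MYC (SD, n = 3), and of 0.06 ± 0.16 for c-MYC/FOXO1AAA (SD, n = 3). The 3 groups did not overlap, and both genes stood at nearly equal levels in c-MYC/FOXO1AAA. Relative to Hnrnpa3 the ratio moved from 0.14 ± 0.36 (SD, n = 4) to 2.82 ± 0.15 (SD, n = 3) and 3.11 ± 0.06 (SD, n = 3), and relative to Hnrnpa0 from -0.58 ± 0.22 (SD, n = 4) to 0.77 ± 0.12 (SD, n = 3) and 0.83 ± 0.11 (SD, n = 3). Hnrnph1 gained on both Hnrnph2 (0.46 in NL, 1.90 in c-MYC) and Hnrnph3 (2.10 and 3.33), on the log2 ratio scale. Srsf4 lost against Srsf6, with log2 ratios of -2.19 ± 0.16 for NL (SD, n = 4), of -3.48 ± 0.26 for c-MYC (SD, n = 3), and of -3.70 ± 0.26 for c-MYC/FOXO1AAA (SD, n = 3). Hnrnpd relative to Hnrnpdl was at -1.60 in NL, -1.49 in c-MYC and -1.47 in c-MYC/FOXO1AAA. No test was run on these ratios.

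**Figure D5:**
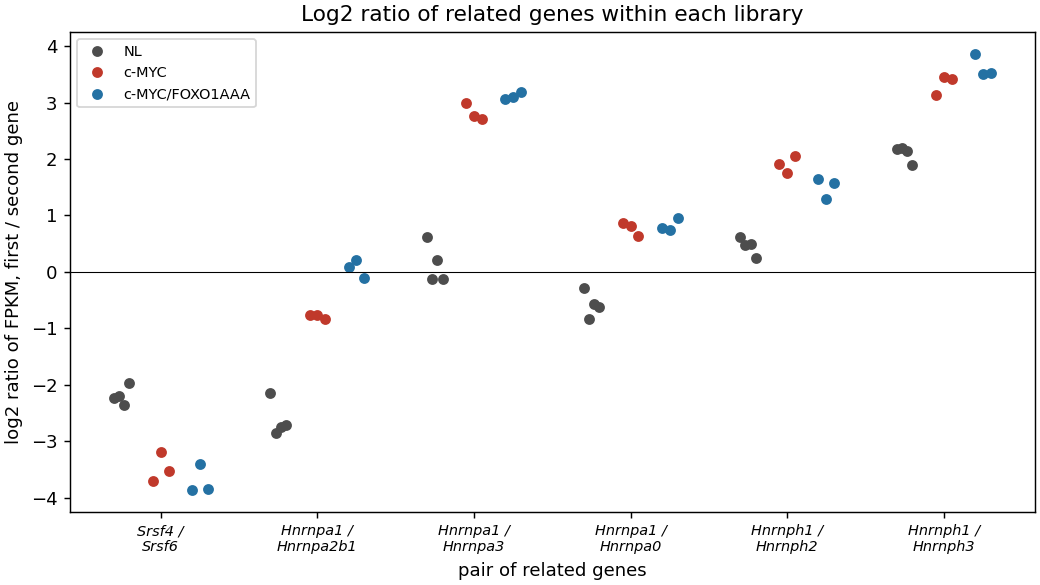
Log2 ratio of the FPKM of 2 related genes (y axis) in each library (points, coloured by group) for the 6 pairs whose ratio differed by at least 1 between groups without overlap. Hnrnpa1 gains on its 3 relatives in both tumour groups, and Srsf4 relative to Srsf6 is lower in both, at -3.48 and -3.70 against -2.19 in NL.

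Other parts of the splicing machinery, in lists set apart from the symbol rule, held 129 tested genes, of which 64 were called higher and 6 lower in c-MYC than in NL (24.5% and 23.6% of all genes), 70 higher and 3 lower for c-MYC/FOXO1AAA against NL (31.2% and 26.6% of all genes), and 6 higher and 3 lower between the tumour groups (15.9% and 12.7% of all genes). In c-MYC against NL, 12 of 19 other U snRNP proteins were called higher and 0 lower. The counts were 8 higher and 1 lower of 15 branch point and U2 recruitment factors, 7 and 1 of 21 Prp19 complex and catalytic step factors, and 2 and 0 of 8 minor spliceosome proteins. Factors that assemble the Sm core, such as the SMN complex, gave 9 and 0 of 12. SR protein kinases gave 1 and 0 of 7, SR-related proteins 10 and 0 of 16, hnRNP relatives under other symbols 8 and 1 of 15, and exon junction complex proteins 3 and 0 of 5. A last list of splicing regulators, which mixes tissue-restricted and broadly expressed genes, gave 4 higher (Khdrbs1, Elavl1, Tia1 and Tial1) and 3 lower of 12. The genes called lower in c-MYC were Zrsr1, Syf2, Cirbp, Celf2, Khdrbs3 and Mbnl1.

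Between the tumour groups the calls lay in 3 of these lists. In the mixed list of splicing regulators, Celf2 was 0.659 ± 0.0536 FPKM over 3 libraries (SD) in c-MYC and 17.7 ± 2.68 FPKM over 3 libraries (SD) in c-MYC/FOXO1AAA (log2 fold change 4.74 ± 0.19 (SE), adjusted p = 5.27e-08). Esrp2, a regulator of epithelial and adult hepatocyte splicing, was at 55.8, 51.0, 45.3 and 50.4 FPKM in NL 1 to 4, 64.9, 73.2 and 55.8 in c-MYC 1 to 3, and 1.87, 2.86 and 8.46 in c-MYC/FOXO1AAA 1 to 3, lower in all c-MYC/FOXO1AAA libraries than in any other (log2 fold change -4.17 ± 0.43 (SE), adjusted p = 4.49e-05). Tia1 was higher in c-MYC/FOXO1AAA (log2 fold change 1.57 ± 0.18 (SE), adjusted p = 0.000799), as was Mbnl1, a regulator of developmental splicing switches (log2 fold change 1.19 ± 0.11 (SE), adjusted p = 0.000717). From the hnRNP relatives, Pcbp3 (log2 fold change 4.15 ± 0.61 (SE)), Cirbp, a cold-inducible RNA-binding protein (1.03), and Ptbp2 (0.97) were called higher, and Ptbp3 (-1.02) lower. Pcbp3 had mean levels of 0.435 FPKM in NL, 0.247 in c-MYC and 4.18 in c-MYC/FOXO1AAA. It passed the filter only through c-MYC/FOXO1AAA, and its lowest library held 1 read, so its fold change rests on values near the floor. Gemin6 of the SMN complex was lower in c-MYC/FOXO1AAA (log2 fold change -1.11 ± 0.20 (SE), adjusted p = 0.0455). Both comparisons share the c-MYC libraries, and in c-MYC against NL the log2 fold changes were -1.65 for Celf2, -1.02 for Mbnl1, -0.95 for Cirbp, 2.51 for Gemin6 and 1.32 for Tia1, all called. Those of Esrp2 (0.35), Pcbp3 (-0.65), Ptbp2 (0.71) and Ptbp3 (0.72) were not called.

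Markers of other cell types moved between the groups as well. In c-MYC against NL, 5 of 6 hepatocyte, 3 of 6 macrophage, 3 of 5 endothelial, 3 of 5 stellate cell and fibroblast and 4 of 4 erythroid markers were called lower, 1 macrophage marker (Cd68) and 1 stellate cell and fibroblast marker (Col1a1) higher, and of 4 cholangiocyte markers 2 were higher and 1 was lower. The summed FPKM ranged over 174 to 305 in NL and 43.3 to 55.5 in c-MYC for macrophages, 44.9 to 60.1 and 9.73 to 16.8 for endothelial cells, 75.0 to 95.9 and 6.499 to 22.69 for stellate cells and fibroblasts, 20.1 to 27.9 and 17.6 to 32.4 for cholangiocytes, and 1117 to 2200 and 131 to 234 for erythroid cells. In c-MYC/FOXO1AAA the sums were 41.1 to 66.9 for macrophages, 25.7 to 40.6 for endothelial cells, 30.2 to 38.1 for cholangiocytes and 215 to 531 for erythroid cells. The cholangiocyte markers moved in opposite directions between the tumour groups. Spp1 (log2 fold change 4.11) and Krt19 (4.03) were called higher in c-MYC/FOXO1AAA, Epcam (-3.0) was called lower, and Krt7 (-2.26) was not called. Of the 5 endothelial markers, Cdh5 was called higher between the tumour groups, from 4.61 ± 1.44 FPKM over 3 libraries (SD) to 25.9 ± 8.99 FPKM over 3 libraries (SD) (log2 fold change 2.49 ± 0.27 (SE), adjusted p = 0.000143), while Pecam1 (-0.71), Kdr (-0.90) and Stab2 (-0.72) had log2 differences below 0 that were not called. Clec4g went with Cdh5 at low levels, with means of 0.227 FPKM in c-MYC and 0.571 in c-MYC/FOXO1AAA. Its libraries did not overlap, and it was not called (log2 fold change 1.47 ± 0.41 (SE), limma treat adjusted p = 0.0862). Between the tumour groups 4 hepatocyte markers were lower and 1, Cyp2e1, was higher in c-MYC/FOXO1AAA, while the stellate cell and fibroblast sum was 237 to 346 FPKM and the sum of the 3 lymphocyte markers listed was 7.59 to 12.6, against 0.501 to 0.754 in c-MYC and 0.857 to 2.48 in NL. Most of these c-MYC/FOXO1AAA sums came from single genes, with means of 235.7 FPKM for Dcn and 9.52 for Cd79a. In c-MYC/FOXO1AAA against NL, Dcn, Col1a1 and Pdgfrb were called higher, Reln was not called, and Lrat was called lower (log2 fold change -3.93). The part of cell mixture, and of the share of dividing cells, in the splicing factor values was not tested. The 6 dividing cell markers were not called between the tumour groups.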

How the data were processed

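Liver tissue was sequenced in 10 libraries (NL 4, c-MYC 3, c-MYC/FOXO1AAA 3). Per the labels, polyadenylated RNA was captured or ribosomal RNA removed before sequencing, and the submitters' processing notes name build GRCm38 and FastQC 0.11.7; the aligner and the counter are not given in the sources used here. The authors summed reads per gene, scaled the libraries in edgeR and deposited log2 FPKM values with a prior count of 2, which raises low values slightly. Values were turned back to FPKM for levels. Whole reads were recovered for 16697 of 16697 gene entries (within 0.02 reads); 372 further entries hold no symbol and no values. Gene positions and transcript lengths come from the GRCm38 annotation, and promoters from RefSeq.

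Genes with at least 1 FPKM in at least 3 libraries (14017) were tested on the deposited log2 FPKM with limma 3.58.1 treat in R 4.3.3 (statmod 1.5.0), against a 1.5-fold threshold, over all 10 libraries, and p-values were adjusted by Benjamini-Hochberg over all genes tested. A count model was not used, because the deposited unit is not counts. The steps were tested on simulated data. Figures and exact permutation tests used Python 3.11.15, scipy 1.17.1 and matplotlib 3.10.9. Alternatives were other pseudocounts, filters, scalings, thresholds and spread estimates, a replicate block and each library left out.

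Named genes were, per comparison, the called genes with the largest changes, the largest change and the highest and lowest level of each family, and pairs of related genes whose ratio differed between groups; other members are named only to account for them, after their values were seen. The members, the pathway and marker lists and the tests were chosen with earlier results of these data known. All columns of per-sample values were used. A gene that enters the counts is not reported here by itself.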

Additional observations from a re-analysis of the deposited data

Results flagged for a closer look

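In 3 of the 65 genes, 1 NL library stood apart from the other 3 by Dixon's criterion. Chance meets this criterion in about 1 of 20 groups, and 3 of 65 lies near that rate. Hnrnpul2, a relative of hnRNP U, was at 20.6 FPKM in NL 1 against 17.4 to 17.6 in the others. Prpf39, a U1-associated factor, was at 7.31 FPKM in NL 4 against 8.66 to 8.79. Snrpb, which encodes the Sm protein B, was at 73.7 FPKM in NL 2 against 91.2 to 94.5.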

How the results depend on the processing

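Of the summary results, 182 values under the alternatives were labelled the same and 22 moved, where counts within 1.5-fold of the reported one were labelled the same. Counts inside that wide margin still depended on the scaling. In c-MYC against NL, 61 members were called higher with the same FPKM total, 40 with equal medians and 49 after quantile normalization, beside 42 as deposited. For c-MYC/FOXO1AAA against NL the counts were 62, 43 and 55, beside 45. No called gene changed sign under another scaling. For c-MYC against NL, 25 members were called higher against a 2-fold threshold and 2 lower with no fold threshold, and the median was 1.98 with the same FPKM total and 1.30 after quantile normalization. Leaving out each library gave 39 to 44 called higher. Between the tumour groups, 2 were called higher with the same FPKM total (Snrpf and Prpf40b), 4 after quantile normalization (Hnrnpa0, Hnrnpa1, Snrpb and Snrpf), 1 with only the 2 groups in the fit (Snrpf), and 14 higher and 3 lower with no fold threshold, and leaving out each library gave 0 to 1 (Snrpf, without NL 1 or NL 2). The median there was 0.26 with the same FPKM total, 0.01 with equal medians and 0.34 after quantile normalization. Against NL, c-MYC/FOXO1AAA had 1 called lower with no fold threshold, 44 to 45 higher with each library left out, and medians of 2.32, 1.08 and 1.67 under those scalings. The share of the summed FPKM was 0.302%, 1.03% and 1.28% in NL, c-MYC and c-MYC/FOXO1AAA without the 10 most abundant genes, and 0.259% in NL without Mup and Alb entries. Among genes that were not called, log2 differences crossed 0 under another scaling. Between the tumour groups these were 14 members with the same FPKM total, 12 with equal medians and 15 after quantile normalization, and included, with the same FPKM total, Hnrnpa2b1 and Sf3a1 (0.05 each) and Prpf38b and Sf3b1 (0.17 each), after quantile normalization Hnrnpa2b1 (0.16), Hnrnpr (-0.16), Prpf38b (0.32), Prpf4 (-0.02), Sf3a1 (0.02) and Sf3b1 (0.30), and with equal medians Hnrnpr (-0.07), Prpf4 and Srsf2 (-0.01 each). In c-MYC against NL they included Hnrnpa3 (0.86 with the same FPKM total, 0.10 after quantile normalization), Prpf40b (0.59 with the same FPKM total) and Srsf4 (-0.00 after quantile normalization), beside Prpf18 and Prpf6 with the same FPKM total. In c-MYC/FOXO1AAA against NL they included Srsf4 (-0.12 with equal medians, -0.16 after quantile normalization, -0.00 with the replicate block), beside Prpf18, Prpf6 and Prpf8 with the same FPKM total, Sf3b6 with equal medians and Prpf8 after quantile normalization. With each library left out, the ranges that crossed 0 included -0.05 to 0.09 for Hnrnpr, -0.09 to 0.08 for Prpf38b, -0.05 to 0.13 for Prpf4 and -0.07 to 0.05 for Sf3b1 between the tumour groups, and for Srsf4 -0.03 to 0.13 in c-MYC and -0.08 to 0.10 in c-MYC/FOXO1AAA against NL. The cause of these shifts was not tested. Deviations of same-numbered libraries correlated at -0.04 to 0.027, and those of other pairs of libraries at -0.072 to 0.07. No shared deviation by number was seen, which cannot exclude that same-numbered samples were handled together. With the replicate block 39 members were called in c-MYC against NL (Snrpc and Snrpd2 were among those lost), 0 between the tumour groups and 45 in c-MYC/FOXO1AAA against NL. At 13.12 M reads in the shallowest library, depth limits mainly Srsf12 and Snrpert.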
